A study of Homo sapiens with 12 samples.

Results

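TRAIL was added to 3 human soft tissue sarcoma lines that were also given taurolidine, and cells given both agents were compared, line by line, with cells given taurolidine only. The 6 arrays were chosen by their labelled agent out of the 12 arrays of the series. All 6 carry taurolidine at 250 µmol/l, and 3 of them also carry TRAIL at 50 ng/ml, with 6 h of incubation in each case. The other 6 arrays hold cells given TRAIL only, at the same dose and time, and untreated cells, for which no incubation time is given. By their labels, A-204 is a rhabdomyosarcoma line, SK-LMS-1 a leiomyosarcoma line and VA-ES-BJ an epithelioid sarcoma line. All are established lines that stand for their tumour type by 1 line each, with 1 array per line and treatment. With no repeated array, the p-values for a mean over lines rest on how unlike the lines were in their responses, together with the noise of single arrays. The labels do not tell separate cultures from a shared one, so that noise may be only technical. The title of the series asks about synergy of the agents, and this comparison asks what TRAIL adds to the transcripts of cells already under taurolidine.

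TRAIL is the ligand encoded by TNFSF10. It binds the death receptors of the genes TNFRSF10A and TNFRSF10B, which recruit the adaptor FADD and the initiator caspases of CASP8 and CASP10 into the death-inducing signalling complex, where the product of CFLAR holds caspase 8 in check. Bound receptors can also switch on NF-kB, a transcription factor whose targets include its own inhibitors. Taurolidine, derived from the amino acid taurine, is an antimicrobial with toxicity to cultured tumour cells.

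Each value below is the signal of an Affymetrix probe set, an average over short probes of 1 transcript, on the linear scale of the MAS5 software. A change is the difference of log2(signal + 11.8) between the arrays with and without TRAIL of the same line. A mean change is over n = 3 lines and is given with its standard error (±) from limma, and a gene passed at a Benjamini-Hochberg adjusted p under 0.05 over all 14221 genes tested. The arrays hold whole cultures, in which fewer cells of a kind and less RNA per cell cannot be told apart.

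Over the 12 arrays the median signal ranged from 123.2 to 155.4. The markers followed the line labels only in part. In the 6 arrays compared, TAGLN and CNN1, of smooth muscle, were highest in SK-LMS-1. In VA-ES-BJ, KRT19, an epithelial keratin, was highest and SMARCB1, a chromatin remodelling subunit often lost in epithelioid sarcoma, lowest. CD34, another epithelioid sarcoma marker, went the other way. It was at 79.6 with taurolidine and 34.0 with both agents in VA-ES-BJ, against 151 and 155 in A-204. VIM, the vimentin gene, was bright in every line and highest in A-204. DES, the gene of the muscle filament desmin, was higher in SK-LMS-1 than in A-204 under both treatments. The myogenic factors MYOD1 and MYOG, which define rhabdomyosarcoma, stayed under the median signal of the whole table, 136.5, on all 6 arrays, A-204 included. Of the markers of cells that should be absent, 6 of 10 leukocyte, 2 of 6 erythroid and 4 of 8 endothelial genes were bright enough to be tested. Of these 0 had an unadjusted p under 0.05 (limma, against 2.63% of all genes), and they are too few to be read against that share.

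No gene passed for TRAIL added to taurolidine. The count was 0 of 14221 (0%, limma), the smallest adjusted p was 0.811, and 374 genes (2.63%) had an unadjusted p under 0.05, 234 higher with TRAIL (1.65%) and 140 lower (0.984%). Taurolidine itself, in the same fit, passed for 2735 genes (19.2%) against untreated cells. The median change of all genes with TRAIL was 0.00, with values of -0.00, 0.01 and 0.01 for A-204, SK-LMS-1 and VA-ES-BJ. The 95% interval of the mean change lay within 2-fold in both directions for 11109 genes (78.1%), so a change of 2-fold or more shared by the lines is outside the interval for most genes. The interval was narrower for brighter genes, with a median standard error of 0.12 at a mean signal of 4000 or more. Under 200 it was 0.41, so smaller changes are outside the interval for some genes only.

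Within a line many genes differed, but mostly genes of low signal. At least 2-fold differences between the 2 arrays of a line were found for 979 genes in A-204 (6.88%), 587 higher (4.13%) and 392 lower (2.76%) with TRAIL. SK-LMS-1 had 832 (5.85%), 472 higher (3.32%) and 360 lower (2.53%). The count for VA-ES-BJ was 799 (5.62%), 366 higher (2.57%) and 433 lower (3.04%). These splits also depended on the scaling: with equal array medians A-204 had 464 higher and 508 lower, and scaled to the spikes SK-LMS-1 had 761 and 255 and VA-ES-BJ 432 and 333. Genes with a mean signal under 200, 2472 of the 14221, supplied 604, 521 and 517 of these differences in the same order of lines. The 3233 genes with a mean signal of 4000 or more supplied 13, 16 and 9. With TRAIL alone VA-ES-BJ stood apart, with a median absolute change of 0.16 among the genes of 4000 or more. Its hybridisation controls, added with the labelled RNA, differed by 1.08 between untreated and TRAIL. Neither array is among the 6 compared, but both enter the limma fit and so its standard errors, intervals and p-values. Limma on only the 6 arrays compared, paired by line, also passed for 0 genes. All values given below for TRAIL alone in VA-ES-BJ rest on its untreated and TRAIL arrays. The pairs of arrays have no replicate, and the within-line differences carry no test of their own.

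**Figure D1:**
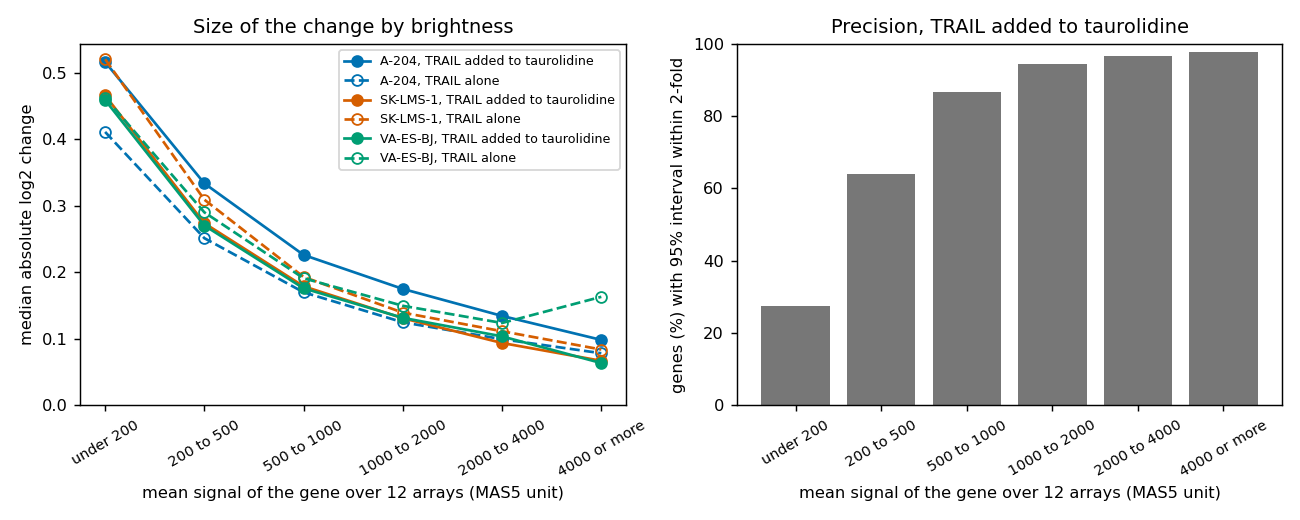
Left, the median absolute log2 change with TRAIL (y) in 6 classes of genes by mean signal (x), for each line with taurolidine present (filled, solid) and absent (open, dashed). Right, the percentage of genes whose 95% interval for TRAIL added to taurolidine stays within 2-fold, from 27.5% of the dimmest class to 97.8% of the class of 4000 or more; in A-204 with taurolidine the median absolute change falls from 0.52 to 0.10 over the same classes.

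The changes of 1 line were not correlated with those of another. Across the 14221 genes the change with TRAIL correlated between lines at Pearson r = -0.00 for A-204 and SK-LMS-1, -0.02 for A-204 and VA-ES-BJ and -0.00 for SK-LMS-1 and VA-ES-BJ. For the 7648 genes with a mean signal of at least 1000 the values were -0.03, 0.01 and -0.05. The change with taurolidine alone, measured on the same lines, correlated at 0.42, 0.47 and 0.39 over all genes and at 0.68, 0.69 and 0.64 over the brighter ones. These are descriptions across genes, which are not independent, and the 2 lines of a pair share no array. In all 3 lines 3315 genes (23.3%) had the same direction, 1785 higher (12.6%) and 1530 lower (10.8%), against 4154 (29.2%) for TRAIL alone.

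**Figure D2:**
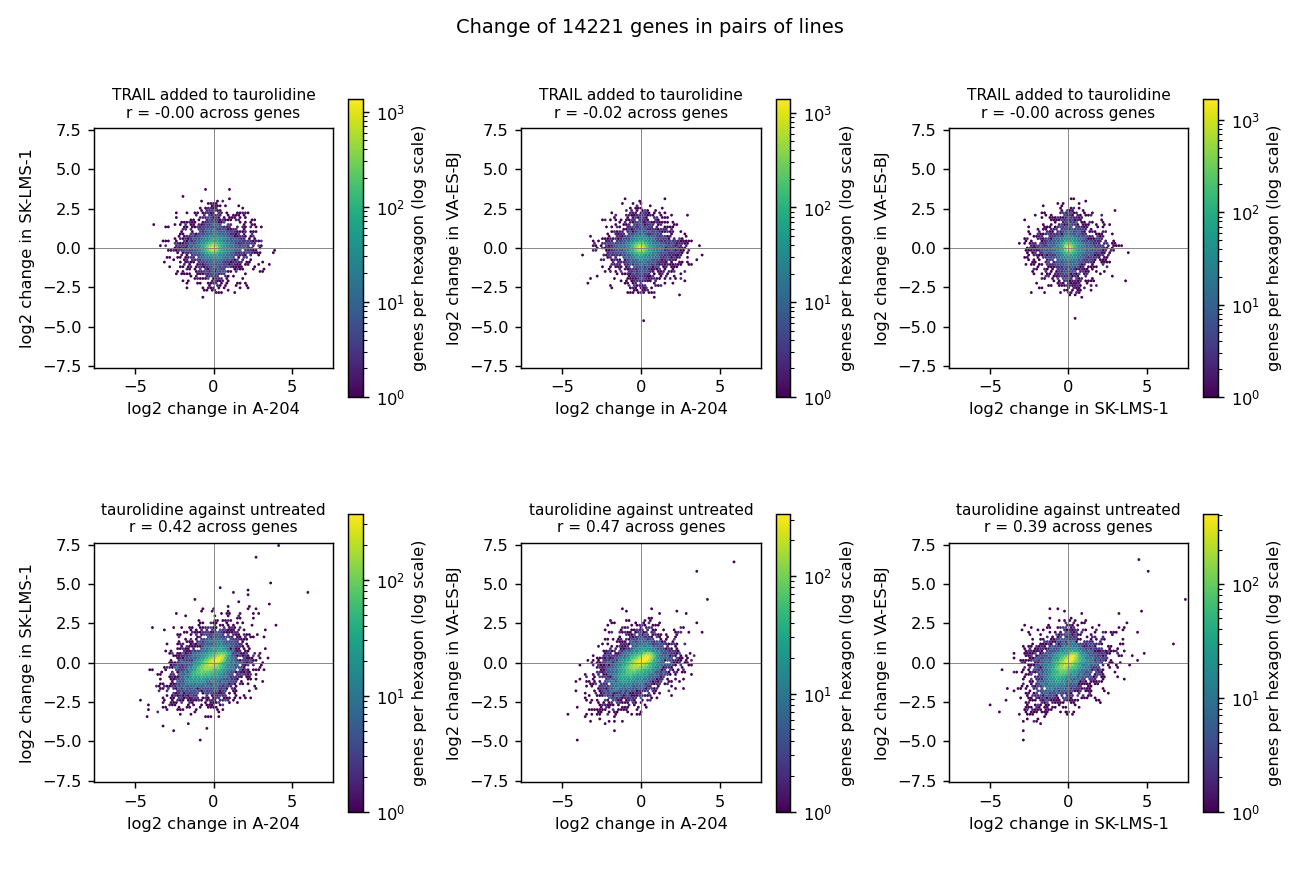
Log2 change of each gene in 1 line (x) against another (y), as the number of genes per hexagon on a log colour scale; the top row is TRAIL added to taurolidine and the bottom row taurolidine against untreated cells. The top clouds are round or cross-shaped, with r between -0.02 and -0.00, and the bottom clouds are tilted, with r between 0.39 and 0.47.

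The death receptors for TRAIL were well measured in most lines, with small mean differences. TNFRSF10B, the death receptor DR5, had signals of 7422, 5231 and 24730 with taurolidine in A-204, SK-LMS-1 and VA-ES-BJ, and 7805, 5494 and 26589 with TRAIL added. All 3 lines were slightly higher with TRAIL, and VA-ES-BJ stood above the other lines under either treatment. The mean change was 0.08 ± 0.11, with a 95% interval of -0.18 to 0.35, and of its 3 other probe sets, with means of -0.09 to 0.38, only 1 had the same sign. TNFRSF10A, the death receptor DR4, went from 1145 to 915 in A-204, from 127 to 309 in SK-LMS-1 and from 1401 to 1222 in VA-ES-BJ. Its difference in SK-LMS-1 was thus opposite to the other lines and started under the table median, and the mean was 0.23 ± 0.31. The decoy receptor gene TNFRSF10D was at 1917, 4193 and 1589 with taurolidine and at 2275, 4190 and 1636 with both agents (0.10 ± 0.23). The other membrane decoy gene, TNFRSF10C, was dim, went from 265 to 45.0 in SK-LMS-1 and from 167 to 216 in VA-ES-BJ, and had a wide interval of -2.39 to 0.93. TNFRSF11B, a soluble receptor that also binds TRAIL, had changes of 0.79, 0.18 and -0.35, and TNFSF10 itself of -0.29, 1.30 and -0.47.

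Of the 11 tested ligand and receptor genes, 10 had a mean change above 0, with a list median of 0.14 against 0.00 for all genes, and 0 passed. That count used the brightest probe set of each gene. The other probe sets of TNFSF10, TNFRSF10D, TNFRSF11B and TNFRSF21 all had the opposite mean sign. Those of TNFRSF10A and TNFRSF25 all had the same sign, and those of FAS and TNFRSF10B were mixed. TNFRSF1B, the second TNF receptor, was the 1 member with an unadjusted p under 0.05 (2.63% of all genes tested). Its signals with taurolidine were 157, 13.0 and 19.2, and with both agents 208, 96.4 and 123. Every line was higher with TRAIL, but 4 of the 6 arrays lay under the table median (mean 1.54 ± 0.41, unadjusted p = 0.0056, limma adjusted p = 1). With TRAIL alone it was lower in the 3 lines, at -0.48, -1.45 and -0.41. FAS, the receptor of the related FAS ligand, differed by 0.19, 0.09 and -0.18, and TNFRSF1A, the main TNF receptor, by 0.11, 0.22 and 0.09.

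The signalling complex also gave no shared direction, and of its 13 tested genes 4 had already passed as lower and 2 as higher with taurolidine alone (19.2% of all genes over both directions). FADD was at 5537, 5620 and 2391 in untreated cells. With taurolidine it was at 1033, 974 and 594, and with TRAIL added at 798, 1195 and 630.0. The 3 lines did not share a direction for TRAIL, and the mean of 0.00 ± 0.18 had an interval of -0.41 to 0.42. CASP8 went from 1109.8 to 983 in A-204, from 167 to 229 in SK-LMS-1 and from 2656 to 2079 in VA-ES-BJ, a mean of -0.03 ± 0.17, against a mean of 0.69 for its other probe set. CFLAR went from 2189.8 to 1587 in A-204, from 5384 to 5462 in SK-LMS-1 and from 10636 to 10195 in VA-ES-BJ, a mean of -0.17 ± 0.12. The A-204 difference of CFLAR, -0.46, was the largest of the 3 lines, and 4 of the 11 other probe sets of the gene had the opposite mean sign. CASP10 and RNF31, a subunit of the linear ubiquitin ligase, were dim and had intervals wider than 2-fold. Of 13 tested genes of the complex 4 were higher, 9 were lower, 0 passed and 0 had an unadjusted p under 0.05 (limma, against 2.63% of all genes). Of the 28 genes listed for receptors and complex, 4 are not analysed here.

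**Figure D3:**
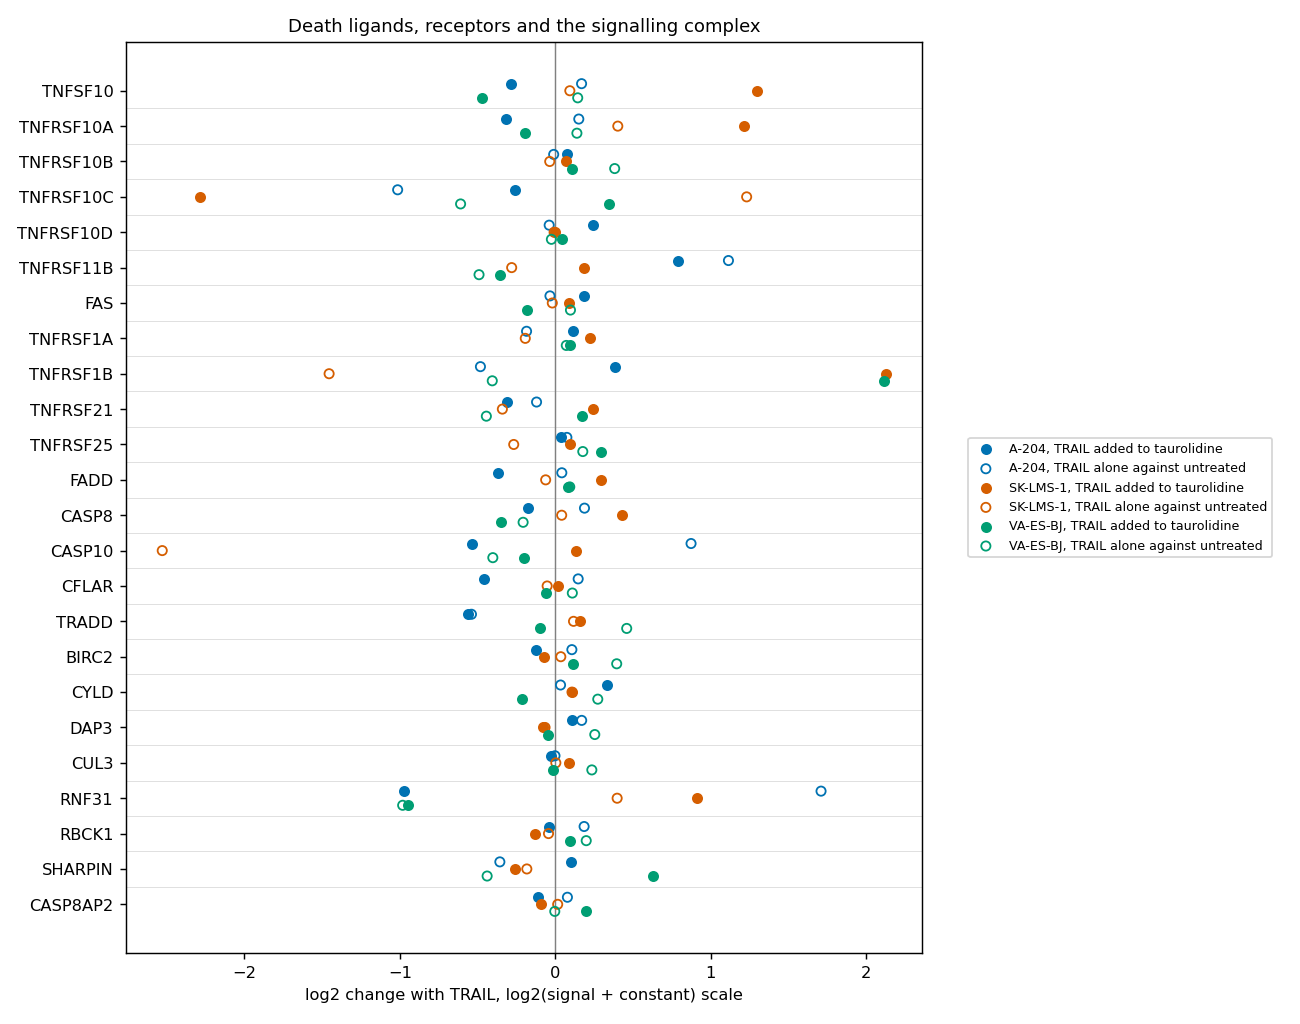
Log2 change with TRAIL (x) of the 24 tested genes of death ligands, receptors and the signalling complex (y), by line (colour), with taurolidine present (filled) and absent (open). TNFRSF10B has filled points at 0.07, 0.07 and 0.10, and most points far from 0 belong to dim genes such as TNFRSF10C, TNFRSF1B, CASP10 and RNF31.

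Downstream of the complex, no gene passed either. All 15 tested genes of caspases, the apoptosome and inhibitors of apoptosis had intervals within 2-fold, 6 higher and 9 lower, with a median of -0.02. CASP9, the initiator caspase of the mitochondrial route, had the highest mean, 0.25 ± 0.17, from 894 to 1300.2 in SK-LMS-1 and with changes of 0.07 and 0.14 in A-204 and VA-ES-BJ. APAF1, the apoptosome scaffold, differed by -0.43, -0.14 and 0.12, and XIAP, a caspase inhibitor, by 0.04, -0.17 and 0.08. In the BCL2 family 8 of 19 genes were higher and 11 lower, and 17 had intervals within 2-fold. PMAIP1, the gene of the BH3-only killer protein NOXA, was at 2656, 22625 and 13052 with taurolidine and at 2498, 22539.5 and 11673 with TRAIL added. Each line was slightly lower, with a mean of -0.08 ± 0.09 and an interval of -0.29 to 0.12. BID, whose product caspase 8 cleaves to reach the mitochondria, differed by -0.18, 0.11 and -0.08, and MCL1, an antiapoptotic member, by 0.09, 0.02 and -0.04. BCL2L1, which encodes BCL-XL, went from 1229.9 to 681 in A-204 while SK-LMS-1 and VA-ES-BJ differed by 0.01 and 0.27. Its 2 other probe sets had means of 0.04 and 0.05, opposite in sign to the mean of the probe set used.

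NF-kB targets were measured as the transcriptional arm of TRAIL receptor signalling. Promoter sequence is shown for 3 of them whose signals are described next, all among the targets with a match to the motif given below. Other targets described later, such as CXCL8, were not among those with a match. The windows are the 250 bases before the annotated start, from RefSeq on GRCh38.p14, and capitals mark matches, on either strand, to GGGA and TTCC with any 2 bases between them, a form of the NF-kB motif. They lie at chr14:35404750-35404999 on the minus strand for NFKBIA, chr6:137867009-137867258 on the plus strand for TNFAIP3 and chr4:74099196-74099445 on the minus strand for CXCL2. In CXCL2 the capitals are 2 overlapping matches.
NFKBIA: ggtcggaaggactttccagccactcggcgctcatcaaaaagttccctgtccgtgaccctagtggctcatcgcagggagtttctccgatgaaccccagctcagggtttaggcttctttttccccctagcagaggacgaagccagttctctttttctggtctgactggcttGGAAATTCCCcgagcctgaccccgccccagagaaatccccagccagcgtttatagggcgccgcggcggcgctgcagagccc
TNFAIP3: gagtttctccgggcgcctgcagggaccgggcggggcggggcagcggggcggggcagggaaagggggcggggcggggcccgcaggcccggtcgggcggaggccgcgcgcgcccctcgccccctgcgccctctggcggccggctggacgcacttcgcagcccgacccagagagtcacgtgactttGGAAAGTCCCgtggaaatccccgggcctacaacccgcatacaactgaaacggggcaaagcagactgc
CXCL2: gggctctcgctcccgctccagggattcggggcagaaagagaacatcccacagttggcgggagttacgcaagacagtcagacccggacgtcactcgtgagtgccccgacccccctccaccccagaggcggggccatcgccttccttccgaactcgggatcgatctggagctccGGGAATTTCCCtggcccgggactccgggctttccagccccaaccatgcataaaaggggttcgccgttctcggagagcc
Of the 28 tested NF-kB targets 23 had a promoter in the RefSeq table, and 13 of these genes held the motif in any of their windows. Of all 35116 windows 492 (1.4%) held it. This is a count of windows and not of genes, so the shares are not directly comparable. The genes had also been listed as NF-kB targets beforehand. A match is a description of these letters and not evidence of binding.

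NFKBIA, the inhibitor that closes the NF-kB loop, was at 2215, 8412 and 3758 with taurolidine in A-204, SK-LMS-1 and VA-ES-BJ. With TRAIL added it was at 1999, 7942 and 3417, and each line was slightly lower, at -0.15, -0.08 and -0.14. With TRAIL alone against untreated cells each line was higher, at 0.52, 0.39 and 0.52, where the VA-ES-BJ value rests on the pair of arrays that stood apart. The test of that difference did not pass (-0.60 ± 0.93, unadjusted p = 0.54, limma). Its standard error takes in the unlike responses of the lines to taurolidine itself, and in an alternative fit chosen after seeing the data, with a term for each line with and without taurolidine, the same difference was -0.60 ± 0.10 (unadjusted p = 0.0014, limma adjusted p = 0.872). IER3, an early stress gene and NF-kB target, had the same pattern, at -0.23, -0.08 and -0.09 with taurolidine present and 0.40, 0.24 and 0.35 without it (difference -0.47 ± 0.45, unadjusted p = 0.33 by limma, and -0.47 ± 0.11 in the alternative fit, unadjusted p = 0.0061, limma adjusted p = 0.872). CXCL2, a neutrophil chemokine, was also lower in each line on top of taurolidine, at -0.52, -0.08 and -0.07, and higher in each line with TRAIL alone, at 0.16, 0.09 and 0.23. Its difference in the alternative fit was -0.39 ± 0.16 (unadjusted p = 0.054, limma adjusted p = 0.872). TNFAIP3, which encodes the feedback inhibitor A20, had no shared direction, with changes of 0.21, 0.02 and -0.11. These patterns were chosen for mention after the values were seen.

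**Figure D4:**
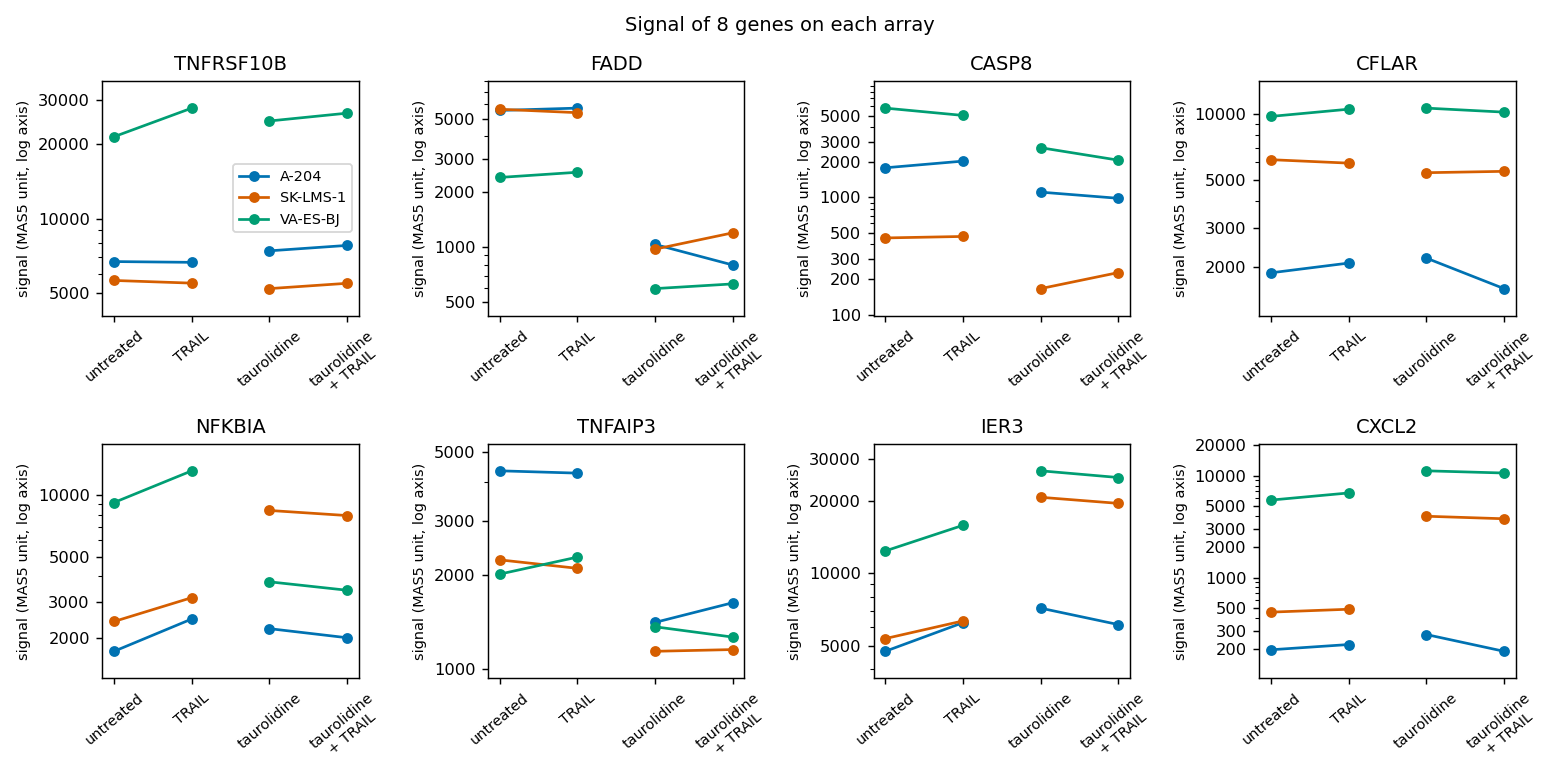
Signal (y, MAS5 unit, log axis, 1 point per array, no error bar since there is 1 array per line and treatment) of 8 genes under the 4 treatments (x), with lines joining the arrays without and with TRAIL. NFKBIA, IER3 and CXCL2 slope up from untreated to TRAIL and down from taurolidine to taurolidine plus TRAIL in each line. The fall is slight except for CXCL2 in A-204. FADD and CASP8 sit lower on the taurolidine side.

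Over the 28 tested NF-kB targets, 16 were higher and 12 lower with TRAIL, the median was 0.02, 0 passed and 0 had an unadjusted p under 0.05 (limma, against 2.63% of all genes). The mean changes ran from -0.61 for TRAF1, an adaptor of TNF receptors that went from 172 to 28.5 in A-204 only, to 0.41 for VCAM1, an adhesion molecule that was dim outside VA-ES-BJ. CXCL8, the chemokine IL-8, differed by -0.25, -0.15 and -0.63 with a mean of -0.34 ± 0.32. CXCL1 went from 1719 to 923 in A-204 and differed by -0.10 and 0.01 in the other lines. The interleukin gene IL6 differed by 0.22, -0.28 and 0.23.

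Among stress genes, TRAIL added no change that passed. Of 24 immediate-early and AP-1 genes, 11 had passed as higher and 2 as lower with taurolidine alone (19.2% of all genes over both directions). With TRAIL added to taurolidine 12 were higher and 12 lower, the median was 0.00, and 0 had an unadjusted p under 0.05 (limma, against 2.63% of all genes). FOS, an AP-1 subunit, went from 6106 to 4939 in A-204, from 20857 to 21662 in SK-LMS-1 and from 2692 to 3289 in VA-ES-BJ. ATF3, a stress-induced factor, went from 3922 to 6344 in A-204, but from 6311 to 6016 and from 8347 to 6804 in the other lines. EGR1 differed by -0.12, 0.05 and 0.12, and JUN by 0.08, -0.08 and -0.09. KLF2, a zinc finger factor, went from 2530.3 to 1279 in A-204, a change of -0.98, and it was at -0.93 there with TRAIL alone, but its change was -0.17 and 0.13 in the other lines. ARC, a neuronal early gene, went from 430.3 to 36.8 in A-204, the largest difference of a list member in any line, and differed by -0.84 and 0.73 in SK-LMS-1 and VA-ES-BJ.

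In the integrated stress response 8 of 24 genes were higher and 16 lower, with a median of -0.04. ATF4, its central factor, was at 28054, 35086 and 16114 with taurolidine and at 27857, 34532 and 16569.5 with both agents, a mean of 0.00 ± 0.13. DDIT3, which encodes CHOP, differed by -0.34, 0.10 and -0.03, and PPP1R15A, a phosphatase subunit that restores translation, by -0.50, -0.01 and 0.09. Of 20 p53 targets 10 were higher and 10 lower. CDKN1A, the cell cycle inhibitor p21, went from 3370.0 to 5547 in A-204 and differed by -0.02 and -0.18 elsewhere. MDM2, the ubiquitin ligase of p53, went from 1122 to 614 in A-204 and differed by 0.33 and -0.09 elsewhere. Of its 6 other probe sets, with means of -0.57 to 0.56, only 2 had the same sign as the mean of the probe set used.

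The interferon list had the lowest median of the 24 pathway lists, -0.13, with 14 of 19 genes lower, 5 higher and 0 passing. IFI27, a mitochondrial interferon-induced gene, was the 1 member with an unadjusted p under 0.05. It went from 1281 to 679 in A-204, from 57.0 to 19.5 in SK-LMS-1 and from 17.8 to 15.6 in VA-ES-BJ, so it was over the table median only in A-204 (-0.72 ± 0.20, unadjusted p = 0.0075, limma adjusted p = 1). ISG15 differed by 0.04, 0.12 and -0.04, and IFITM3 by -0.36, -0.06 and -0.01. By line the list medians were -0.21 for A-204, 0.05 for SK-LMS-1 and -0.07 for VA-ES-BJ.

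Housekeeping programmes gave narrow intervals and no gene that passed. All 24 oxidative phosphorylation genes, 24 proteasome subunits and 15 ribosomal protein genes had intervals within 2-fold, with medians of -0.01, 0.01 and 0.04. Likewise all 26 mitosis genes and 27 DNA replication genes had intervals within 2-fold, with medians of -0.02 and -0.01. CDT1, a replication licensing factor, was among the largest there, from 3455 to 2137 in A-204 with changes of 0.08 and -0.11 in the other lines. Over all 24 pathway lists, 455 of 511 genes were tested and 396 had intervals within 2-fold. A single gene was higher and a single gene lower at an unadjusted p under 0.05, TNFRSF1B and IFI27, against 1.65% and 0.984% of all genes. The list medians ran from -0.13 to 0.14, and 21 of the 24 lay within 0.1 of 0. The smaller lists held a few A-204 differences, such as SLC30A1, a zinc exporter, which went from 2577 to 5621, and MVD, of cholesterol synthesis, which went from 42.8 to 254. Neither was shared by the other lines, where SLC30A1 differed by -0.17 and 0.08 and MVD by -0.49 and -0.61. The other probe set of SLC30A1 had a mean of -0.06, opposite in sign to the mean of the probe set used.

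Genes with the same direction in 3 lines and the smallest p, 10 higher and 10 lower, are described without any having passed. NSMCE3, on chromosome 15, encodes a subunit of the SMC5/6 complex of DNA repair. It was at 300.5, 698 and 356 with taurolidine and at 718, 1015 and 664 with TRAIL added. Each combination array was above the taurolidine array of its line, and all 6 arrays were over the table median (0.88 ± 0.13, 1.84-fold, unadjusted p = 0.00017, limma adjusted p = 0.811). In untreated cells it was at 1083, 2118 and 1320.2, so the combination lay between taurolidine and no treatment, comparisons that share the taurolidine arrays.

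SLFNL1, a schlafen-like gene on chromosome 1, went from 87.3 to 375 in A-204, from 53.5 to 271 in SK-LMS-1 and from 108 to 228 in VA-ES-BJ. The taurolidine arrays were all under the table median and the combination arrays all over it (1.69 ± 0.24, unadjusted p = 0.00012, limma adjusted p = 0.811). SLCO2B1, an organic anion uptake transporter on chromosome 11, had the same form, from 73.8, 58.0 and 55.6 to 264, 247 and 167 (1.66 ± 0.31), but its other probe set had a mean of -0.69. FAM78A was under the table median on all 6 arrays, at 49.7, 48.5 and 21.3 and then 123, 110.3 and 87.7. The remaining higher genes were PRTG, GPR135, IGFN1, ZSCAN31, TUBA8 and LINC00029, with mean changes of 0.84 to 1.61 and unadjusted p of 0.00048 to 0.0021.

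Of the lower genes, GSX2, a homeobox gene of forebrain development on chromosome 4, had the smallest p of all genes. It went from 289 to 175 in A-204, from 271 to 108 in SK-LMS-1 and from 269.5 to 119 in VA-ES-BJ (-1.01 ± 0.14, unadjusted p = 9.4e-05, limma adjusted p = 0.811). NRG2, a neuregulin on chromosome 5, went from 444 to 289 in A-204, from 150.3 to 99.7 in SK-LMS-1 and from 260.2 to 141 in VA-ES-BJ (-0.66 ± 0.12). PDGFA, a platelet-derived growth factor chain on chromosome 7, went from 385 to 188 in A-204, from 192 to 56.8 in SK-LMS-1 and from 445 to 331 in VA-ES-BJ (-0.99 ± 0.23), with a mean of -0.97 for its other probe set. PREX1, listed next, had a mean of 0.52 for its other probe set, opposite in sign. Of the 20 genes, the 10 higher had 3 other tested probe sets, 1 with the same sign, and the 10 lower had 4, 2 with the same sign. GSX2, NRG2 and PDGFA were lower with TRAIL in each line, yet all had signals under 500 on these arrays. The others were NPTN-IT1, PREX1, ATP6V0E2-AS1, SETD1A, MST1R, GLYATL1-AS1 and LRIG3, at -1.42 to -0.70. Among them SETD1A encodes a histone H3 methyltransferase and MST1R a receptor tyrosine kinase.

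**Figure D5:**
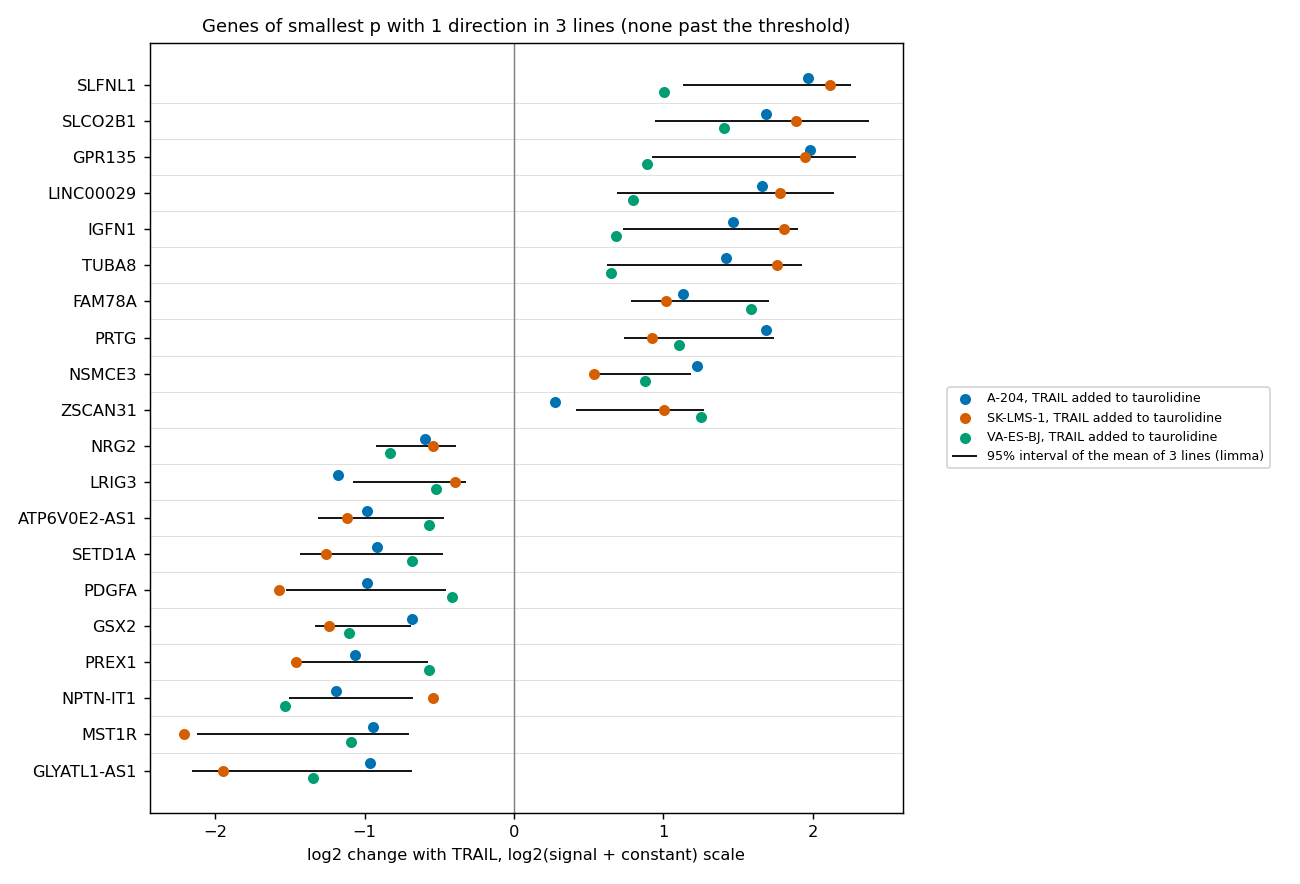
Log2 change with TRAIL added to taurolidine (x) of the 20 genes of smallest p with 1 direction in 3 lines (y), with 1 point per line (colour) and the 95% limma interval of the mean as a bar. None passed the adjusted threshold; the points of the lines lie on the same side of 0 because the genes were chosen for that.

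Only 6 genes (0.0422%) differed at least 2-fold in the same direction in all 3 lines. They were SLFNL1, SLCO2B1, FAM78A, NECTIN4 and ALDH1L1-AS2, higher, and LOC652276, lower. Their mean signals lay between 99.8 and 189. The same count was 11 for TRAIL alone (0.0774%) and 363 for taurolidine alone (2.55%).

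Some brighter genes with small shared changes were picked after their values were seen. KRI1, a ribosome assembly factor, went from 769 to 980.4 in A-204, from 680.1 to 875 in SK-LMS-1 and from 712 to 939 in VA-ES-BJ. The 3 changes, 0.35, 0.36 and 0.39, were close to each other (0.37 ± 0.09, unadjusted p = 0.0029, limma adjusted p = 1). WEE1, the kinase that holds cells before mitosis, went from 2048 to 1579, from 3065 to 2389 and from 2309 to 1517 (-0.44 ± 0.12), while its other probe set had a mean of 0.08. PRKAA1, a catalytic subunit of AMP-activated kinase, was lower by TRAIL in each line with taurolidine, at -0.47, -0.58 and -0.22, and without it, at -0.35, -0.36 and -0.17. STT3A, a subunit of oligosaccharyltransferase, went from 7804 to 4608, from 6906 to 4316 and from 4084 to 3559 (-0.54 ± 0.15), whereas TRAIL alone gave 0.44, 0.34 and -0.20. None of these passed.

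Within a line, genes over the table median on both arrays are described next by their largest differences. Larger ones, such as that of NKX6-2 in A-204, had at least 1 array under that median. In A-204 the highest was CLSTN3, a calsyntenin, from 160.2 to 586, with 0.06 for TRAIL alone. In SK-LMS-1 the highest and lowest were CASTOR2, from 137 to 646, and GNAO1, a G protein subunit, from 527 to 154, with -0.04 and -1.03 alone. In VA-ES-BJ they were LINC01016, from 153 to 514, and MATR3, a nuclear matrix protein, from 585 to 149, with 0.08 and -1.34 alone. GNAO1 and MATR3 were thus lower under both conditions, and CLSTN3, CASTOR2 and LINC01016 were not at least 2-fold different with TRAIL alone. The other probe set of LINC01016 had a mean change over the lines of -0.52, opposite in sign. Among the 5 largest lower values of each line, ZGPAT, a zinc finger repressor gene, went in A-204 from 559 to 179 with TRAIL on taurolidine but from 889.7 to 855 with TRAIL alone. IL32, a cytokine gene, went from 567 to 206 in A-204 and from 199.9 to 100.5 in SK-LMS-1, but from 11309.7 to 11387 in VA-ES-BJ, where it was most abundant. In SK-LMS-1, CD82, a tetraspanin, went from 1061 to 409.6 and differed by -0.14 and -0.15 in the other lines. In VA-ES-BJ, DECR2, of peroxisomal fatty acid oxidation, went from 1723 to 719, while A-204 and SK-LMS-1 differed by 0.46 and 0.53. Each of these is 1 array against 1.

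Genes that differed at least 2-fold in the same direction both with and without taurolidine numbered 111 for A-204 (0.781%), 145 for SK-LMS-1 (1.02%) and 108 for VA-ES-BJ (0.759%). Those with opposite directions numbered 108 (0.759%), 130 (0.914%) and 109 (0.766%), so the shared direction was about as frequent as the opposite one. Across genes the change with and without taurolidine correlated in the same line at -0.01, 0.02 and 0.01. LITAF, a lipopolysaccharide-induced gene, went from 27.8 to 129 in SK-LMS-1 on taurolidine and from 29.0 to 177 without it, and its other probe set had the opposite mean sign. SMARCB1 in VA-ES-BJ went from 262 to 76.9 and from 152 to 21.9. NKX6-2, a homeobox gene, went from 18.9 to 445 in A-204 and from 18.7 to 188. CAV3, a muscle caveolin, went there from 22.0 to 384 and from 35.3 to 176.

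A fit with a TRAIL term for each line, over its arrays with and without taurolidine, passed for 0 genes in A-204, SK-LMS-1 and VA-ES-BJ. At an unadjusted p under 0.05 there were 683 (4.80%), 745 (5.24%) and 610 (4.29%) by limma. The genes of smallest p were ANO5 for A-204 (2.01 ± 0.11), CCM2L for SK-LMS-1 (-2.16 ± 0.11) and LYPD6 for VA-ES-BJ (2.43 ± 0.16), with adjusted p of 0.155, 0.133 and 0.131. On the arrays with taurolidine ANO5 went from 9.98 to 79.9 in A-204, CCM2L from 113 to 17.8 in SK-LMS-1 and LYPD6 from 9.95 to 119 in VA-ES-BJ. All 3 differences lay under the table median. The genes were brighter in other lines, where ANO5 differed by 0.51 in VA-ES-BJ, the direction it had in A-204. CCM2L differed by 0.25 in VA-ES-BJ, and LYPD6 by -0.32 and 0.26 in A-204 and SK-LMS-1. On taurolidine the other probe set of CCM2L had a mean change over the lines of 0.23, opposite in sign. Of the 2 others of LYPD6, with means of -0.29 and 0.42, only 1 had the same sign. The test of whether the TRAIL change differed between lines passed for 0 genes, with 729 at an unadjusted p under 0.05 (5.13%) and a smallest adjusted p of 0.266.

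Whether TRAIL acted otherwise in the presence of taurolidine than in its absence was tested as the difference between the changes, which is also the departure from additivity on the log2 scale. It passed for 0 genes (smallest adjusted p = 0.998, limma), with 537 at an unadjusted p under 0.05 (3.78%), 407 positive (2.86%) and 130 negative (0.914%). That split depended on the scaling, with 175 positive and 446 negative for equal array medians, 281 and 201 after quantile normalization and 561 and 60 scaled to the spikes. TTF2, a transcription termination factor, had the smallest p. TRAIL shifted it by 0.22, 0.53 and 0.15 on taurolidine and by -0.83, -0.46 and -0.85 alone, a difference of 1.01 ± 0.17 (unadjusted p = 0.00029). Its signals were 2048, 2504 and 2553 with taurolidine and 2387, 3623 and 2825 with both. The other probe set of TTF2 had a mean change of -0.15 for TRAIL on taurolidine, opposite in sign. PYCARD, the inflammasome adaptor, went the other way, at -0.25, -0.27 and -0.50 on taurolidine and 0.16, 0.09 and 0.28 alone (-0.52 ± 0.15, unadjusted p = 0.0080), and was picked after its values were seen. TRAIL alone passed for 0 genes, with 563 at an unadjusted p under 0.05 (3.96%).

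Array controls differed slightly with the comparison. The 27 poly-A spike-in probe sets, RNAs added before labelling, were lower with TRAIL in each line, at -0.09, -0.31 and -0.15 (mean -0.18, SD 0.11, n = 3). With 3 lines the smallest exact 2-sided sign-flip p is 0.25. The 18 hybridisation controls differed by -0.04, 0.15 and 0.02, and the 3' to 5' ratios of GAPDH and ACTB by 0.02 and 0.01 on average. Scaled to the spikes instead, the median change of all genes was 0.18, 0 genes passed, and 1070 genes were higher and 38 lower at an unadjusted p under 0.05. With equal array medians the split was 153 higher and 246 lower, against 234 and 140 as deposited. The direction of small changes over all genes thus depends on the scaling, and the part of the spikes in the result was not tested.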

How the data were processed

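RNA of 12 cultures was hybridised to Affymetrix arrays with 54675 probe sets. The authors deposited intensity per probe set, unlogged. MAS5 is its source per the submitters' processing notes. The version, like the scaling target and detection calls, is not given in the sources used here. From the values, every array had a trimmed mean of 1000.1 to 1000.2. The platform annotation gave 41091 probe sets a single gene, 1801 several and 11777 none listed.

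Probe sets above the table median (136.5) on at least 3 of 12 arrays were kept, the brightest on average represented its gene, and 14221 genes entered as log2(value + 11.8), the constant being the 10th percentile. limma 3.58.1 (R 4.3.3) was fitted to all 12 arrays with treatment and line as terms (6 residual and 1.98 prior degrees of freedom), so differences between lines in the response to either agent enter the error. A second fit gave each line its own terms (3 residual degrees of freedom). The procedure was tested on simulated data.

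Arrays were paired by cell line. The correlation of deviations from treatment means was 0.857 to 0.908 for arrays of the same line and -0.483 to -0.389 for others, and no 2 arrays shared over 0.00183% of their values.

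Members and gene lists were chosen with earlier results of these data known. Named genes were, up to 10 per direction, those of smallest p with 1 direction in 3 lines (none passed), the 5 largest differences per direction in a line, all receptor and complex genes, up to 4 members per other list, the smallest p of each further test, and those repeated with and without taurolidine. Further genes were picked after their values were seen. Some named by the rule are summarised by counts only. Promoter sequences are from RefSeq.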

Additional observations from a re-analysis of the deposited data

How the results depend on the processing

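With each alternative run for it, including those that left out a line, TRAIL added to taurolidine passed for 0 genes, except without the filter on low values, where 1 gene did. This was EBF2, under the table median on all 12 arrays (-1.80 ± 0.13, limma adjusted p = 0.0209). The TRAIL term of A-204 passed for 1 gene with a constant of 1, ANO5 (2.81 ± 0.10, limma adjusted p = 0.0493). Every other setting gave 0 genes for each test. Leaving out a line gave 0 to 0 genes for TRAIL added to taurolidine, for TRAIL alone and for the difference between them. The 20 genes of smallest p kept their direction wherever they were tested. They were chosen for 1 direction in 3 lines, so leaving out a line cannot turn the sign of their mean. Only 1 of them was tested among the genes over the table median on all 12 arrays. Of 8742 values of 594 named genes under alternatives 829 changed sign.

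Counts of 2-fold differences followed the treatment of low signals. In A-204, SK-LMS-1 and VA-ES-BJ they were 254, 123 and 122 with a constant of 100, 2805, 2471 and 2462 without the filter, and 38, 18 and 35 for the genes over the table median on all 12 arrays. Genes with an unadjusted p under 0.05, 374 as reported, numbered 74 with no replicate block (no cell line term), 211 with that filter on all arrays, 746 without a filter, 1108 scaled to the spikes, 576 with blocks of line and taurolidine and 1056 of 32421 probe sets tested one by one, both added after seeing the data. Among 5316 probe sets without a single gene name 0 passed, and 250 had an unadjusted p under 0.05 (limma). With 1 array per line and treatment, low signal limits the precision: the median standard error was 0.41 for genes under a mean signal of 200 and 0.12 for those of 4000 or more.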
